A study of Mus musculus with 16 samples.

Results

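Ago2 regions close to the 5′ ends of coding genes were described in mouse splenic B cells. A region is a stretch of 5-nt bins in the same hidden state in the authors' comparison of pooled Ago2 HITS-CLIP libraries by dCLIP, a hidden Markov model for such data. Regions were taken that overlapped the span of exactly 1 annotated gene on the same strand, where that gene was protein coding and spanned over 10 kb, and whose midpoint lay within 1000 nt downstream of the gene's annotated 5′ end. In all 11927 of 962084 regions met this rule, in 5770 clusters and 3315 genes, called host genes here. The rule used positions and no measured difference. A cluster is an unbroken group of neighbouring regions under 1 identifier in the output.

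The KO mice lacked miR-221 and miR-222, and the Flox mice carried the floxed locus. The cells of both genotypes (strain given as C57B6L/J) had been cultured for 4 days with an antibody to CD40 at 500 ng/ml, IL-4 at 25 ng/ml and IL-21 at 10 ng/ml. RNA-seq and Ago2 HITS-CLIP were each made from 4 KO and 4 Flox samples. The labels used here do not name the Cre driver, the age of the mice, or whether animals were pooled.

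Argonaute proteins such as Ago2 carry miRNAs and are guided to RNAs mainly by pairing of the seed, a short stretch near the 5′ end of the miRNA. In animals most known functional sites lie in 3′ untranslated regions, although Argonaute crosslinks are also found in coding sequence, in introns and near the start of transcripts. The beginning of a gene holds its 5′ untranslated region and, in long genes, usually the start of the first intron. In HITS-CLIP, RNA is crosslinked to the protein by ultraviolet light, and the fragments recovered with the precipitated protein are sequenced. The files give gene spans without exons, so spliced RNA, unspliced RNA and RNA of unannotated transcripts in the window cannot be told apart.

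The miRNAs that the KO mice lacked share 1 seed (GCUACAU, in capitals), and they are shown because that seed sets the match searched for below. RefSeq places them on the minus strand of GRCm38.p6, miR-221-3p at chrX:19146307-19146329 and miR-222-3p at chrX:19146901-19146923.
mmu-miR-221-3p: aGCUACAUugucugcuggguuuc
mmu-miR-222-3p: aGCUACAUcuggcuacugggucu

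Sequence was at hand only for the RefSeq windows from 250 bases before to 50 bases after a gene start (GRCm38.p6). At least 20 bases were known for 942 of the 11927 regions, 44618 bases in all. The DNA match of the seed, ATGTAGC, occurred on the transcript strand in 2 of these 942 regions, one in Ebf1 and one in Ptprc, and on the other strand in 1 region. Of all 32817 RefSeq windows, 329 (1.0%) held the match on the gene's strand and 374 (1.14%) on the other. Per 10000 bases that was 0.448 matches in the regions and 0.340 in all windows, so the regions stood close to the windows at large, on a count of 2. The sites are shown with the match in capitals, Ebf1 at chr11:44618034-44618063 (plus strand) and Ptprc at chr1:138175266-138175295 (minus strand).
Ebf1: agcccgccttgATGTAGCgcgagtctcatc
Ptprc: tttagcagtgcATGTAGCtagcaagtggtt

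These sites lay in regions of different kinds. Ebf1 encodes early B cell factor 1, a transcription factor needed for the B lineage, and its site lay in a region of positive difference (state 2, mean difference 0.344, score 25.2) 712.5 nt from the 5′ end. That region lies within the Ebf1 span of the gene table but upstream of the RefSeq start, since the table's 5′ end is further upstream. Ptprc encodes CD45, the receptor phosphatase of leukocytes, and its site lay in a region of the middle state (state 1, mean difference -0.0228, score 0) 478.5 nt from the 5′ end. A match of letters is a description and does not show a working site.

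3 further sequences are shown as examples of regions with known bases in named genes, without a seed match. They are Lyplal1 at chr1:186117261-186117284 (minus strand), Prkcb at chr7:122289110-122289139 (plus strand) and Birc2 at chr9:7836790-7836814 (minus strand).
Lyplal1: acgtggccgcgcgccttgccatct
Prkcb: ggggccagcggtgccaagcacagctggacc
Birc2: tattttttcagtcaacccaggctag

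Base composition differed among the shown stretches, with 70.8% G or C in Lyplal1, 73.3% in Prkcb and 40% in Birc2. Over the 942 regions with known bases the median was 68% G or C. It was 68.4% in 306 regions of state 0, 68% in 607 of state 1 and 59.2% in 29 of state 2. The last group is small, and all of these regions lie close to a RefSeq start. The first 50 bases were read in expressed coding genes over 10 kb with a RefSeq start within 10 nt of the annotated 5′ end. Their median was 68% G or C in 242 host genes where a region covered at least 20 of them. It was also 68% in 1040 host genes where less was covered, against 66% in 2102 genes without a region.

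How the model's values are read sets what can be said of them. State 0 holds regions with a negative difference between the pooled conditions, state 2 those with a positive difference, and state 1 those between. The mean difference is the average over a region's bins of the authors' difference score, and the score is the authors' summary value per region, 0 in every state 1 region. The deposited output does not say which condition is KO, so no sign is given a genotype. Replicates were pooled before the comparison, so none of the CLIP values carries an error between mice and none was tested. The 4 columns of tags and mutations per condition could not be matched to a genotype and were not used, and the score is given in place of tags. The lowest score of any state 2 region was 2.9, against 0.6 for state 0, so the states were not called at equal scores.

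Near 5′ ends, negative differences outnumbered positive ones by more than in the other places compared. Of the 11927 regions, 4077 (34.2%) were in state 0, 7045 (59.1%) in state 1 and 805 (6.75%) in state 2. Over all 962084 regions the shares were 33.1% in state 0 and 9.29% in state 2. The 46178 regions within 1000 nt of the 3′ end of the same kind of gene had 27.9% in state 0 and 16.9% in state 2. The 701188 regions over 1000 nt from both ends of such genes had 31.6% in state 0 and 9.23% in state 2. The share in either differential state was 40.9% (4882 regions) near 5′ ends, against 42.4% over all regions. The share of differential regions and the state 0 share were thus close to the background, while the state 2 share was lower. This holds for regions of any score. At a score of at least 5, positive regions outnumbered negative ones near 5′ ends (538 against 417), as over all regions (67457 against 48769). All the shares above count regions, which are cut where the state changes, whatever their width. A near-equal share therefore does not show that the same length of RNA was differential.

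The differences themselves were small in the middle of the distribution. The median mean difference was -0.0428 near 5′ ends (95% interval of the median over regions -0.0449 to -0.0407), against -0.0199 near 3′ ends and -0.0367 over all regions. This interval covers the spread over regions, which share clusters, genes and libraries, and not the spread between mice. From the 5th to the 95th percentile the 5′ regions ran from -0.283 to 0.225, and the extremes were -0.526 and 0.457. Within state 0 the median difference was -0.222 and within state 2 it was 0.254.

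Strong scores were rarer near 5′ ends. A score of at least 5 was reached by 955 regions (8.01%), against 22.7% near 3′ ends, 9.54% inside genes and 12.1% over all regions. Of the 955, 417 were in state 0 and 538 in state 2, the reverse of the order over all 5′ regions. This was not particular to 5′ ends. At that score, 3319 regions near 3′ ends were in state 0 and 7184 in state 2. Inside genes the numbers were 19805 and 47103, and over all regions 48769 and 67457. The median score of the differential 5′ regions was 2.3, against 5.0 near 3′ ends. By state the median score was 2 in state 0 and 5.9 in state 2.

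The regions were short, and their clusters were narrower than near 3′ ends. The median width was 50 nt (quartiles 30 and 90 nt), as near 3′ ends. Widths ran from 5 to 530 nt near 5′ ends and from 5 to 1035 nt near 3′ ends. The median cluster with a 5′ region was 130 nt wide, against 180 nt near 3′ ends and 120 nt over all clusters. Clusters over 400 nt held 11.9% of the 5′ regions and 46.3% of the 3′ regions.

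Cluster width moved with the state. Near 5′ ends, state 2 made up 5.59% of regions in clusters of up to 100 nt, 4.34% in clusters over 100 and up to 200 nt, 6.95% over 200 and up to 400 nt, and 17.3% over 400 nt. Near 3′ ends the shares in the same order of width were 7.51%, 7.78%, 14.5% and 24.1%. The state 2 share was thus lower near 5′ ends in each of the 4 width classes, as the plot of states by cluster width shows. In each class the 5′ regions were closer to the regions inside genes (7.26%, 5.03%, 9.06% and 19.0%) than to the 3′ regions.

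**Figure D1:**
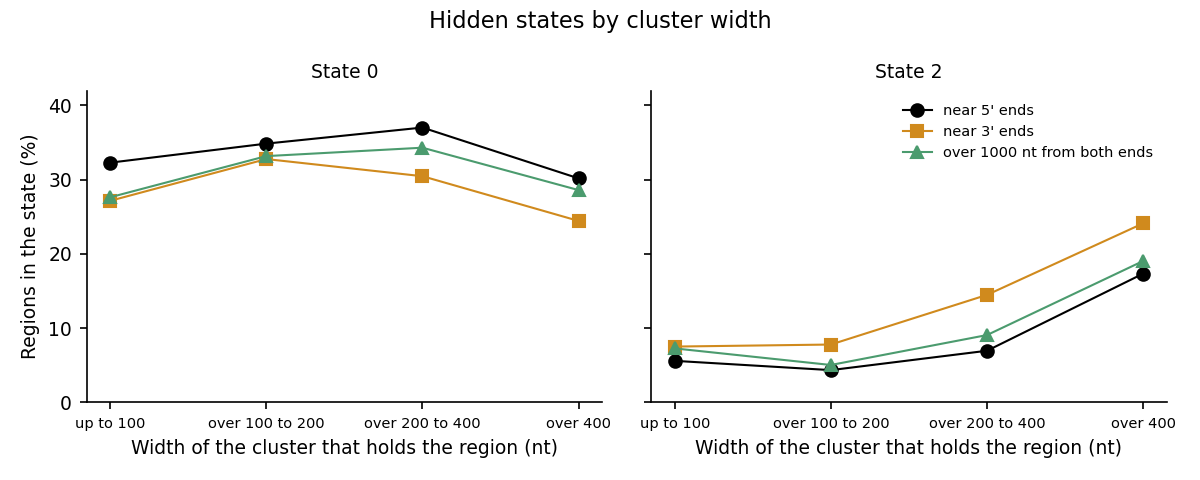
Percent of regions in state 0 (left panel) and state 2 (right panel) by the width of the cluster in nt, for regions near 5′ ends (circles), near 3′ ends (squares) and over 1000 nt from both ends (triangles). The 5′ regions had the lowest state 2 share in all 4 width classes and rose to 17.3% in clusters over 400 nt.

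Position within the window mattered for how many regions were found. Counted per 50 nt, the regions numbered 457 in the first 50 nt, 833 from 50 to 100 nt and 815 from 100 to 150 nt. Numbers then fell to 450 and 448 in the bins from 350 to 450 nt and climbed to 733 in the last 50 nt before 1000 nt. Summed over 100 nt, 1648 regions lay from 50 to 150 nt, 898 from 350 to 450 nt and 1456 from 900 to 1000 nt. The profile near 3′ ends had another shape, with 7174 regions in the 100 nt next to the end and a steady decline away from it to 3757 from 900 to 1000 nt. The edge of the window was a limit of the rule and not of the data: H2-Eb1 (score 1.7) and Tbrg4 (score 0) had a region with the midpoint at 1000 nt, while Pknox1 (score 6.5) and Ankib1 (score 0) had one at 1000.5 nt and were left out there.

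**Figure D2:**
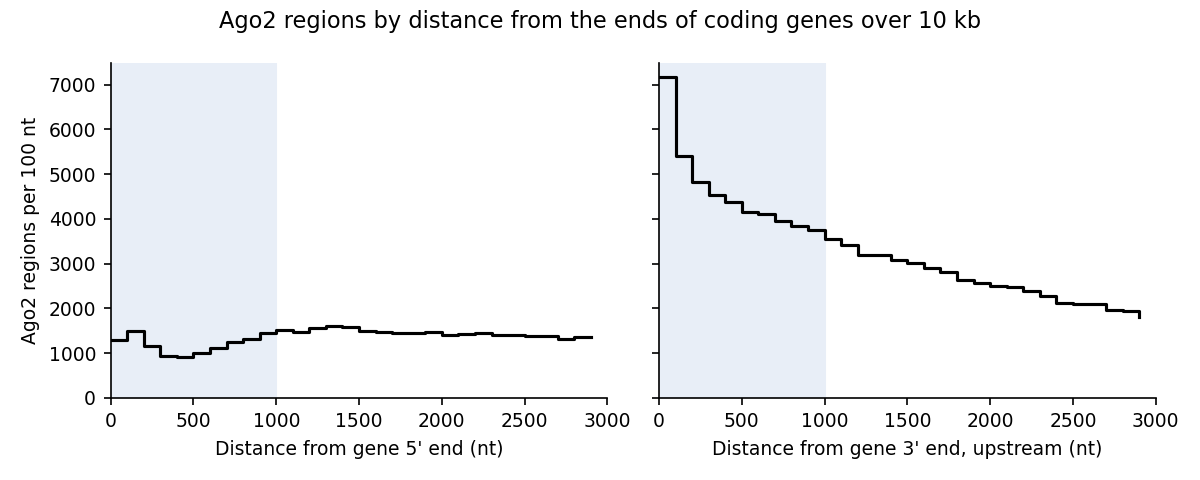
Number of Ago2 regions per 100 nt against distance from the annotated 5′ end (left) and from the 3′ end going upstream (right) in coding genes over 10 kb; shading marks the 1000 nt windows. The 5′ profile has a local peak near 100 nt, a low near 400 nt and a plateau beyond 1000 nt, and the 3′ profile falls from 7174 regions next to the end.

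The balance of states changed along the window as well. In the first 100 nt, 38.1% of regions were in state 0 (exact 95% interval 35.4% to 40.8%) and 4.19% in state 2 (3.16% to 5.43%). From 900 to 1000 nt, 31.3% were in state 0 (28.9% to 33.8%) and 8.59% in state 2 (7.20% to 10.2%). These exact binomial intervals cover counting error only and treat regions as independent, which neighbours in 1 cluster are not. By position in the window, state 2 took 5.36% of regions up to 500 nt and 8.06% from 500 to 1000 nt, and state 0 took 36.0% and 32.5%. The share of regions in clusters over 400 nt also moved with distance, at 7.64% up to 500 nt and 15.9% beyond, and its part in the change of states was not tested. In clusters over 100 and up to 200 nt wide the state 2 share was 3.80% up to 500 nt and 4.89% beyond.

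**Figure D3:**
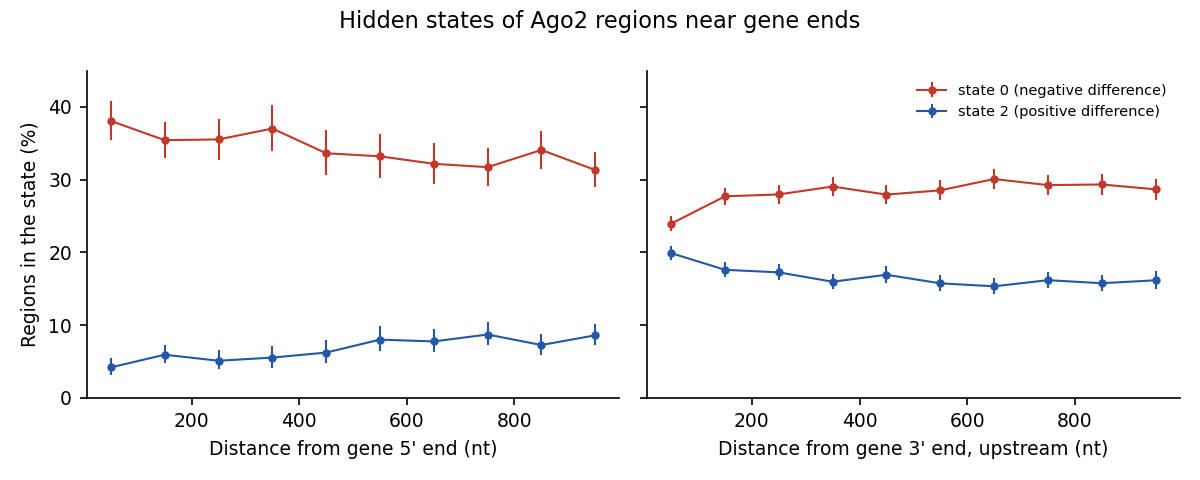
Percent of regions in state 0 (red) and state 2 (blue) per 100 nt of distance from the 5′ end (left) and the 3′ end (right), with exact 95% binomial intervals. Near 5′ ends state 2 is at 4.19% in the first 100 nt and at 8.59% in the last, and near 3′ ends state 2 is highest, at 19.9%, in the 100 nt next to the end.

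Host genes held few regions each. The median was 3 regions per gene, 989 genes had 1, 196 had at least 10, and the highest number was 22, in Laptm5 and Ctse. The regions of a gene covered a median of 175 nt of the window (quartiles 95 and 340 nt). A region of state 0 was present in 2308 genes and one of state 2 in 604, with 476 genes holding both and 879 neither.

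Regions of opposite sign shared a cluster in a minority of cases, and less often than near 3′ ends. Of 5770 clusters, 3627 had a differential region near the 5′ end: 2949 had state 0 without state 2, 316 had state 2 without state 0, and 362 (9.98%) had both. Near 3′ ends both signs occurred in 32.9% of the clusters with a differential region. Where differential regions followed each other within a cluster near 5′ ends, 534 of 1255 successive pairs (42.5%) were of opposite state, at a median gap of 25 nt. Such pairs were not counted in the other places.

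The mean differences at both ends of a gene did not go together. Both windows held regions in 2669 host genes (80.5%). The gene's mean difference was lower at the 5′ end in 1765 of them (66.1%), with medians of -0.0533 at the 5′ end and -0.0217 at the 3′ end. Across these genes the Pearson correlation of the 5′ and 3′ means was 0.0004 and the Spearman correlation -0.007; genes are not independent replicates, and both means come from the same pooled libraries. Among 1253 genes with at least 200 nt covered at each end, 923 (73.7%) were lower at the 5′ end and the Spearman correlation was 0.013.

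The highest scores near 5′ ends lay at tRNA genes. Both were in Fcgr3, the gene of the low affinity IgG receptor III, known from myeloid and natural killer cells. The region at chr1:171064720-171064769 had a score of 233.7 and a mean difference of -0.239 and falls within the RefSeq tRNA gene n-TGtcc1. The region at chr1:171064180-171064249 had a score of 174.6 and a mean difference of -0.229 and overlaps n-TEctc5. Fcgr3 mRNA was at 7.4, 3.9, 2.3 and 6.8 normalized counts in the KO libraries and at 8.3, 5.2, 6.9 and 8.3 in the Flox libraries, below the mean of 10 needed for a test. The gene was barely read in either genotype, and these regions are placed in Fcgr3 by position alone. In all, 7 regions in 3 host genes overlapped a RefSeq tRNA gene.

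Other regions of the set share their place with a further annotated gene. RefSeq placed 11666 of the 11927 regions in their own host gene and 151 in none, and 1005 overlapped another RefSeq gene on either strand. Of these, 502 overlapped a long noncoding RNA gene and 457 a coding gene. Overlaps given for single regions, those with tRNA genes included, were likewise found by position on either strand. The region of score 36.7 in Il31ra, the receptor subunit for IL-31, overlaps the pseudogene Gm3226, and Il31ra itself had 7.4 normalized counts in 1 KO library and 0 in the other 7 libraries. The annotated 5′ end is a limit as well: of 2605 host genes with a RefSeq start, 1284 (49.3%) had one within 10 nt of the 5′ end in the gene table and 2106 (80.8%) within 100 nt. Gene positions had up to 1 nt of uncertainty against the CLIP positions, whose first base number is not stated.

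Apart from the tRNA and pseudogene positions, the top scores came from genes of varied function. Ubl3, which encodes a membrane-anchored ubiquitin-like protein, had a region of score 43.2 with a mean difference of 0.202. E2f3, a transcription factor of the cell cycle, had one of score 42.3 with -0.184. Apobec1, a cytidine deaminase of RNA editing, had one of 37.9 with 0.269, and Ctse, the protease cathepsin E, one of 37.9 with 0.228. Nfil3, a basic leucine zipper repressor, reached 31.0, the tetraspanin gene Cd53 reached 30.5 with a difference of 0.400, and the small GTPase gene Rap1a reached 28.7. Of the 12 genes with the highest scores, 8 had their top region in state 2 and 4 in state 0. They were picked by score, and scores ran higher in state 2 over all 5′ regions (median 5.9, against 2 in state 0).

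Laptm5, a lysosomal membrane protein that lowers antigen receptor levels, is an example of a gene with alternating signs. Its 22 regions covered 945 nt of the window and belonged to 1 long cluster of 3150 nt. Of these, 6 were in state 0 and 5 in state 2. The top region (20 nt, 299.5 nt from the 5′ end) had a difference of -0.251 and a score of 40, and lay between positive regions at 252 nt (0.258, score 30) and 369.5 nt (0.226, score 17.3). It also overlaps the long noncoding RNA gene Gm38599 in RefSeq. Averaged over the gene, the mean difference was -0.0035. In the KO libraries Laptm5 mRNA was at 89553, 80266, 94530 and 81145 normalized counts, and in the Flox libraries at 74599, 76992, 73341 and 78982. All 4 KO values lay above all 4 Flox values, with a log2 fold change of 0.18 (SE 0.10) and an unadjusted limma p of 0.0862. Without KO 1 and KO 3 the log2 fold change was 0.09 (SE 0.10).

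The most extreme mean differences belonged to other genes, among regions with a score of at least 5. The most negative were in Anp32a, an acidic nuclear phosphoprotein (-0.526, score 9.6), Ints6, a subunit of the Integrator complex (-0.518, score 15.8), Cd81, a tetraspanin of the cell surface (-0.501, score 11.1), Mfap3 (-0.499) and Gga3, a sorting adaptor of the Golgi (-0.496). The most positive included those in Arid5b, an AT-rich DNA-binding protein (0.457, score 11.7), Erdr1 (0.454), the kinase gene Nek10 (0.451) and Ssb, which encodes the RNA-binding La protein (0.438, score 9.4). They were chosen by these values, which are a description. In RefSeq the Anp32a region also overlaps the coding gene Gm20346, the Ints6 region the long noncoding RNA gene 4931440J10Rik and the Cd81 region the long noncoding RNA gene R74862. The strand of these other genes was not compared, so whether they could be the source of the regions was not tested.

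B cell genes gave both signs. Among the B lineage transcription factors, 11 of 20 coding genes over 10 kb had a 5′ region, with 96 regions. Of these, 33 were in state 0 and 9 in state 2, beside 34.2% and 6.75% of all 5′ regions. Ebf1 had 11 regions, 4 in state 0 between 262.5 and 612.5 nt with differences from -0.244 to -0.211, and then the single positive one at 712.5 nt that holds the seed match. Pax5, the factor that keeps B cell identity, had 16 regions, with positive ones at 37.5, 392.5, 477.5 and 605 nt (differences 0.238, 0.267, 0.260 and 0.218) and negative ones at 200, 527.5 and 692.5 nt (-0.237, -0.258 and -0.187). Bcl6, a repressor needed in germinal centres, had 1 positive region of 145 nt at 450 nt (0.243, score 20.6), which also overlaps the long noncoding RNA gene Gm31527, and 3 negative ones further in (-0.256, -0.302 and -0.248).

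**Figure D4:**
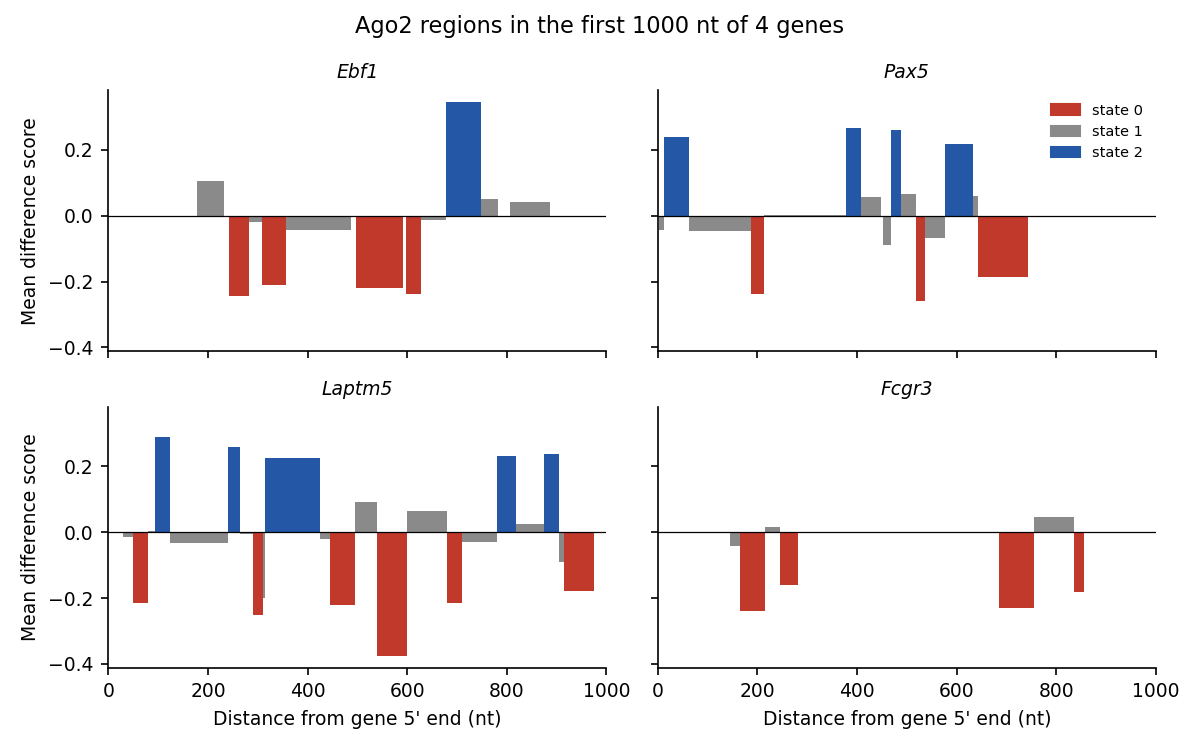
Mean difference score of each Ago2 region (bar, drawn to its width) against distance from the 5′ end in Ebf1, Pax5, Laptm5 and Fcgr3, coloured by hidden state. Ebf1 has 1 high positive region (0.344), Pax5 and Laptm5 alternate in sign, and the differential regions of Fcgr3 are all negative.

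For signalling genes, a region was present in 10 of 16 genes of B cell receptor signalling (55 regions, 22 in state 0 and 1 in state 2, beside 34.2% and 6.75% of all 5′ regions), the positive one being in Cd22, an inhibitory coreceptor (0.248, score 10.5). CD40 and NF-kB signalling had 12 of 19 genes, with 77 regions, 26 in state 0 and 9 in state 2. Top regions were positive in Rel (0.291), an NF-kB subunit, and Birc2 (0.238), a ubiquitin ligase bound to TRAF proteins. Rel held 3 regions of each sign and Birc2 4 of each sign. IL-4, IL-21 and STAT signalling had 9 of 13, among them Jak1 (-0.230, score 18) and Il21r, the IL-21 receptor (0.268, score 13.3). Class switching and break repair had 9 of 23 genes, among them Rnf168, a ubiquitin ligase at DNA breaks (-0.281, score 8.9), and Parp1, a sensor of such breaks (0.232, score 4.1).

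Genes for the handling of chromatin and RNA followed. The BAF complex, a nucleosome remodeller, had a region in 11 of 19 genes, with 33 regions of which 14 were in state 0 and 1, in Bicra, in state 2, beside 34.2% and 6.75% of all 5′ regions. Arid1a, a DNA-binding BAF subunit, had 5 regions in 1 cluster from 337 to 464.5 nt, 3 of them negative (-0.261, -0.223 and -0.224) and none positive. Histone modifying enzymes had 21 of 30 genes, the miRNA machinery 9 of 15, splicing and RNA-binding factors 12 of 16 and translation initiation 13 of 14. Dgcr8, the partner of Drosha in miRNA processing, had a top region of -0.276, and Tnrc6c, a GW182 protein bound by Argonaute, one of 0.223. In comparison, 23.9% of all 13896 coding genes over 10 kb were host genes, and 36.5% of the 8769 of them that were expressed enough to be tested, of which 65.4% had a region near the 3′ end.

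Cell cycle and replication genes had a 5′ region in 8 of 14 and cell death and survival genes in 8 of 13. Among genes named in the literature as targets of miR-221 and miR-222, 5 of 18 had one. Among these were Icam1, an adhesion molecule (-0.317, score 11.1), and Bcl2l11, which encodes the death factor BIM (0.275, score 7.2); the Bcl2l11 region also overlaps Acoxl in RefSeq. Of 8 coding genes over 10 kb that mark other cell types, none had a region, and 2 of these were expressed enough to be tested in RNA-seq.

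Coverage rose with expression. A 5′ region was present in 5.02% of tested coding genes with a mean of 10 to 100 normalized counts, 20.3% from 100 to 1000, 53.1% from 1000 to 10000 and 83.1% above. By gene length the share hardly moved, between 33.7% and 38.6% over 4 classes of span. The part of expression in the rates of the gene lists was not tested.

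RNA-seq asked whether the host genes differed in mRNA level between KO and Flox. Depth was 22947689 to 39236132 reads in KO libraries and 25421025 to 39616596 in Flox libraries. The rows of Mir221 and Mir222 could not check the labels, with 0 reads in each KO library and at most 3 in a Flox library. The neighbouring transcript Gm14636 had 288, 220, 238 and 248 reads in KO and 1, 2, 1 and 3 in Flox. Summed B cell markers were 92760 to 116136 normalized counts in KO and 105688 to 110794 in Flox, while summed myeloid markers were 70.5 to 103 in KO and 47.0 to 91.4 in Flox. Of the summed T cell markers (1587 to 1927 in KO, 1409 to 1621 in Flox) nearly all was Lck, and Cd3e stayed at or below 12.7; the part of these markers in the results was not tested. The first principal component of the log2 values (33.5% of variance) was at 38.0, 15.3, 35.6 and -7.47 in the KO libraries and between -26.5 and -14.5 in the Flox libraries, so KO 1 and KO 3 lay furthest out, and counts are also given without them.

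Of 3315 host genes, 3199 were tested and 3 passed an adjusted p of 0.05 (limma-trend on log2 of normalized counts plus 1, Benjamini-Hochberg adjustment over 13091 genes), against 0.0687% of all genes called. Fewer cells of a type and less RNA per cell cannot be told apart in such bulk samples, and the p-values cover no more than the spread among these libraries.

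Tnfrsf26, which encodes a receptor related to those for tumour necrosis factor, was at 429, 356, 469 and 324 normalized counts in KO and at 1309, 1670, 1526 and 1656 in Flox. All KO values lay below all Flox values, and the gene fell by 1.97 on the log2 scale in KO (SE 0.13), at a limma adjusted p of 3.9e-05. Its 5′ regions lay between 770 and 937.5 nt, 2 of them positive (0.215 and 0.385) and 1 negative (-0.194).

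Tspan32, a tetraspanin of blood cells, was at 868, 884, 794 and 966 normalized counts in KO and at 1434, 1566, 1658 and 1567 in Flox. The groups did not overlap, and the log2 fold change was -0.83 (limma SE 0.09, adjusted p = 0.00283). It had 1 positive region at 671 nt (0.338, score 7.0) and 1 negative one at 848.5 nt (-0.179, score 1.4). Tspan32 (chr7:143005046-143019644) and Tnfrsf26 (chr7:143607659-143628722) lie in the same part of chromosome 7. Over all genes tested, these 2 were the only ones called lower in KO. Whether their changes are linked was not tested.

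Lyplal1, a lysophospholipase-like gene, was at 116, 100.4, 127 and 81.9 normalized counts in KO and at 28.6, 23.6, 19.7 and 21.7 in Flox. It rose by 2.13 on the log2 scale (limma SE 0.23, adjusted p = 0.00233), and without KO 1 and KO 3 together the limma adjusted p was 0.110. Its only 5′ region, the one whose bases are shown above, was negative (-0.233, score 4.0) and centred 38 nt from the 5′ end.

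Below that threshold the host genes leaned higher in KO. An unadjusted p under 0.05 was reached by 594 host genes (18.6%), against 15.1% of all genes tested, of which 420 were higher in KO (against 7.74% of all genes) and 174 lower (against 7.39%). The median log2 fold change was 0.04 in host genes and -0.01 over all genes. The KO and Flox libraries did not overlap in 327 host genes (10.2%), against 7.97% of all genes. Tested coding genes over 10 kb without a 5′ region reached an unadjusted p under 0.05 in 12.9%. Of these genes without a region, 7.76% were higher in KO and 5.10% lower, against 13.1% and 5.44% of host genes. A lean towards higher values in KO was thus present in both kinds of gene, and the shares lower in KO were close.

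The size of this lean depended on particular libraries and moved with gene length. Without KO 1 and KO 3 together, 201 host genes (6.28%) had an unadjusted p under 0.05, against 6.22% of all genes. Of these, 120 were higher in KO (3.75%, against 2.73% of all genes) and 81 lower (2.53%, against 3.48% of all genes), so the total was close to the background and the shares by direction were not. The shares were not tested against each other. Without Flox 3 the count was 311, without Flox 4 it was 357, and without KO 1 it was 387. Among genes spanning 10 to 20 kb, 4.37% of host genes and 3.49% of coding genes without a 5′ region were higher in KO at that p, and among genes of 80 kb or more 30.5% and 16.4%. The share was higher in host genes in each of the 4 length classes, and its rise with length appeared in genes of both kinds. By expression the order varied: 14.9% of host genes and 10.6% of the others were higher in KO at a mean of 1000 to 10000 normalized counts, and 5.93% and 6.92% at 100 to 1000. These shares were not tested against each other.

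With limma, and with edgeR on recovered reads, 0 of 135 host genes in the 14 gene lists passed the adjusted threshold, while DESeq2 called 10, all higher in KO, against its 1.76% of all genes and 2.16% of host genes. At an unadjusted limma p under 0.05 there were 44 higher in KO and 2 lower. This stood against 7.74% and 7.39% of all genes, and 13.1% and 5.44% of tested host genes. Without KO 1 and KO 3 there were 17 higher and 0 lower. That stood against 2.73% and 3.48% of all genes, and 3.75% and 2.53% of tested host genes. The lists were not matched for gene length. By list, 7 of 11 BAF host genes, 7 of 9 of the miRNA machinery, 10 of 21 histone enzymes and 5 of 11 B lineage factors had a p under 0.05, each higher in KO. Without KO 1 and KO 3 these counts were 4 in BAF, 1 in the miRNA machinery, 6 in histone enzymes and 1 in B lineage factors. Median log2 fold changes were 0.28 in BAF, 0.35 in the miRNA machinery, 0.22 in histone enzymes and 0.21 in B lineage factors, against -0.01 over all genes, and without KO 1 and KO 3 they were 0.17, 0.20, 0.14 and 0.13 in the same order. With all libraries, B cell receptor signalling had 3 of 10 at that p, CD40 and NF-kB signalling 3 of 12, and translation initiation 4 of 13. IL-4, IL-21 and STAT signalling had 2 of 9, class switching 2 of 9 and literature targets 2 of 5. Each of these was higher in KO. Cell cycle genes had 1 of 8, lower in KO. Splicing factors had 2 of 12, 1 in each direction, and cell death genes 0 of 8.

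Arid1a mRNA was at 8489, 6423, 7646 and 6276 normalized counts in KO and at 5772, 5670, 4475 and 4785 in Flox. The groups did not overlap, KO 1 and KO 3 were the highest, and the log2 fold change was 0.48 (limma SE 0.12, adjusted p = 0.238), against 0.30 without KO 1 and KO 3. Pax5 was at 2985, 2709, 2688 and 2434 in KO and at 2136, 1926, 1591 and 1650 in Flox, also without overlap, with a log2 fold change of 0.57 (limma SE 0.11, adjusted p = 0.205), and 0.50 without KO 1 and KO 3. Ebf1, whose region holds the seed match, was at 3083, 2303, 2969 and 2372 in KO and at 2156, 2345, 1994 and 1802 in Flox. Its groups overlapped through KO 2 and Flox 2, and the log2 fold change was 0.37 (limma SE 0.12, adjusted p = 0.250), against 0.18 without KO 1 and KO 3.

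Arid5b, which had the most positive difference, was at 2073, 1300.2, 1829 and 1473 normalized counts in KO and at 1248, 1270, 962 and 897 in Flox. The groups did not overlap, with a log2 fold change of 0.60 (SE 0.16) that did not pass adjustment and was 0.36 without KO 1 and KO 3. Bcl6 overlapped between the genotypes, at 1776, 1140, 1623 and 1454 in KO and 1155, 1214, 1335 and 1420 in Flox, with a log2 fold change of 0.21 that was 0.01 without KO 1 and KO 3. Cd53, with a 5′ difference of 0.400, had a log2 fold change of -0.03 (SE 0.09).

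Other tests on the same values gave other numbers of calls. On recovered reads, edgeR's quasi-likelihood test called 3 host genes, and DESeq2 called 69, 53 higher and 16 lower, against 1.76% of all genes. The authors' deposited table had an adjusted p under 0.05 for 60 of 3165 host genes, 46 higher and 14 lower in KO, against 1.58% of its rows with such a p. By DESeq2 the calls included Pax5 (adjusted p = 0.00233) and Arid1a (adjusted p = 0.0283).

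**Figure D5:**
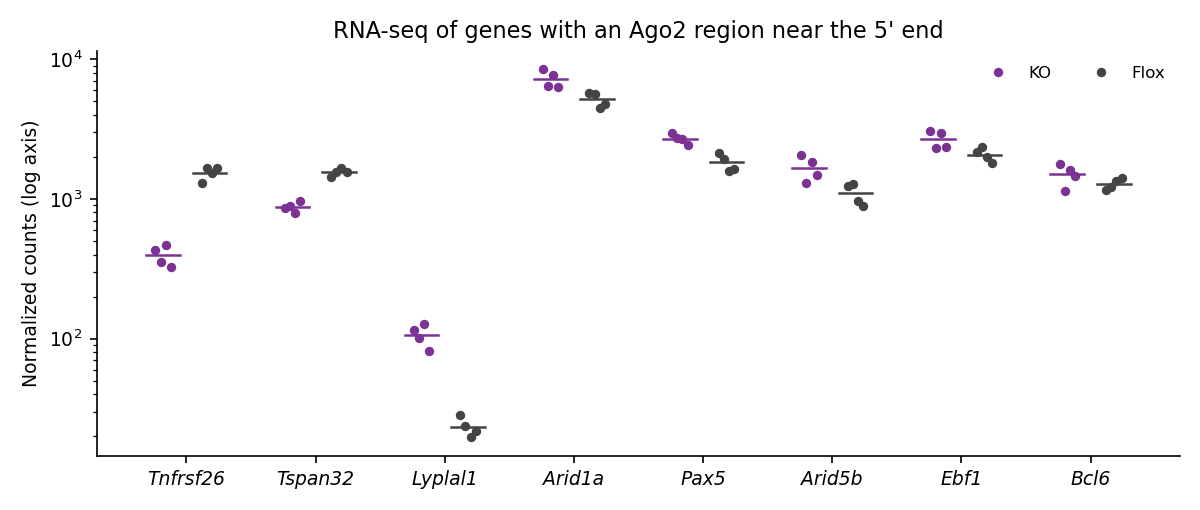
Normalized counts (log axis) of 8 host genes in 4 KO libraries (left of each pair) and 4 Flox libraries (right of each pair), with horizontal lines at the means. Tnfrsf26 and Tspan32 are lower and Lyplal1 is higher in all KO libraries, and the groups of Ebf1 and Bcl6 overlap.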

How the data were processed

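The authors' RNA-seq table holds a signal per gene and library, counts divided by a size factor, per the file headers; its columns name Flox WT. It also holds variance-stabilized log2 values (not used), the authors' log2 fold change, ratio (fold) and p-values, and gene GC content in percent. For each bin of 5 nt the deposited CLIP output holds a hidden state and a difference score whose log base is not stated, and the summary deposited with it holds 1 score for each region. Labels and headers were the source for upstream steps: cutadapt, Bowtie2, SAMtools, STAR, DESeq2 and DESeq are named without versions or roles per the submitters' processing notes. These notes name mm9, but gene and CLIP positions are those of GRCm38: 87.6% of regions lay in a gene on the same strand, 7.69% in one on the other strand, and 24.5% when positions were moved by 1000000 nt.

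The 13147668 bins were joined into 962700 regions, all found in the summary; 616 on unplaced or unsequenced ends were left out. The 4 tag and mutation columns per condition name no genotype and were not used, although they had been seen while the file was inspected. The planned tag counts and tag minimums were replaced by the score and could not be run; the naming rule (12 highest scores, 5 most extreme differences of each sign at a score of at least 5, the edges of the window, up to 3 genes per list, called genes, genes with most regions, and Arid1a) used the score likewise. Members and lists were chosen with earlier results of these data known.

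RNA-seq values stepped in whole reads (100% of values within 0.1 read). Genes with a mean of at least 10 were tested by limma-trend 3.58.1 on log2(value + 1), two-sided, with edgeR 4.0.16 and DESeq2 1.42.0 on recovered reads as alternatives. Fold changes are on that log2 scale, which understates low genes. The labels do not say whether equal replicate numbers pair samples, so the samples were treated as unpaired. Correlations of deviations between equal numbers were -0.094 to 0.003, which cannot exclude a weak pairing. Joining and tests were checked on simulated data. Sequences and gene types came from RefSeq (GRCm38.p6), symbols from the table. Some genes that the naming rule took are not reported here.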

Additional observations from a re-analysis of the deposited data

How the results depend on the processing

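The CLIP values rest on pooled libraries and carry no error between mice. The rule set the number of regions: 5790 with a window of 500 nt, 26986 with 2000 nt and 955 at a score of at least 5. The median difference was -0.0499 at 500 nt and -0.0382 at 2000 nt, and 0.223 at a score of at least 5. That last limit removes state 1 by construction, so 100% of its regions were differential, with a median score of 7.1. The differential share was 41.8% among regions of at least 20 nt. With spans over 20 kb (9085 regions), with any number of gene spans (12493) and without regions that overlap another RefSeq gene (10922, a setting chosen after seeing the data), the differential share stayed between 40.9% and 41.0% and the median difference between -0.0429 and -0.0427. The 3 host genes called by limma were 69 with DESeq2, 1 with a window of 500 nt, and 3 to 4 when 1 library at a time was left out. The replicate block gave 4 called and 514 at an unadjusted p under 0.05. That unadjusted count was 594 with all libraries, 311 to 809 without 1 library, and 201 without KO 1 and KO 3 together, a setting chosen after seeing the data. Of 255 values of single genes under alternatives, 249 stayed on the same side of the threshold, 5 passed it with DESeq2 (Arid1a, Arid1b, Bicra, Pax5 and Arid5b), and Lyplal1 lost its call without KO 1 and KO 3. Without KO 1 and KO 3 the fold changes of Bicra, Arid1b and Tnrc6c were 0.39, 0.22 and 0.19, against 0.74, 0.42 and 0.35 with all libraries. No direction was reversed; the cause of the other shifts was not tested. Minimums of 10 and 50 tags were not run.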
